A study of Mus musculus with 2 samples.

Results

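Retained-intron transcripts are annotated, non-coding forms of a gene whose exons include sequence that other transcripts of that gene splice out. They were taken here as every transcript of the GENCODE M21 mouse annotation (build mm10) typed as retained intron, 21848 of the 141862 annotated transcripts, and each was given the reads that the deposited tables list under its identifier. The study read full cDNA copies of total RNA from hippocampus (labelled layer of hippocampus) of B6CASTF1/J mice, a cross of C57BL/6J with CAST/EiJ, all female and 14 days old. Its 1 group holds 2 libraries, replicates 1 and 2, each a pool of 3 animals with 2 µg of RNA and with ERCC and SIRV spike-ins added. By their characteristics the pools come from different animals, although 1 label line gives both the same animal numbers. With a single condition, levels are described and the libraries are compared only with each other, on reads. Such tests compare these pools and say nothing of other animals.

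An intron is removed when the spliceosome pairs its 5′ splice site, usually starting with GT, with its 3′ splice site, usually ending with AG. A transcript that keeps an intron often meets a stop codon inside it, and such RNA is commonly held in the nucleus or degraded by nonsense-mediated decay, which removes RNAs with an early stop codon. In mammals, regulated intron retention is known in genes of splicing factors and of splicing kinases, and in neurons some retained-intron RNAs are stored and spliced later. A retained-intron entry of the annotation may also be a partial model, since many were built from short cDNA clones that start or end inside an intron.

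The retained introns shown first are leading examples that the libraries both kept and spliced, each inside a coding region. Lower case with capitals at the first and last bases of the intron (GT and AG) is used, 10 exon bases flank each, and further capitals mark the first stop codon in the frame of the upstream coding exon where it lies in the shown stretch (in Dennd6b, Naa40 and Mdp1 the stop codon overlaps the GT and runs on from it). Introns over 300 nt are shown by their ends. Sequences are those of GENCODE M21 transcripts on mm10, read 5′ to 3′, and the coordinates are those of the printed stretch.
Rsrp1 intron 3, 5′ end (chr4:134925423-134925472, plus strand): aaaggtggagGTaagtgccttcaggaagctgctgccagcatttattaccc
Rsrp1 intron 3, 3′ end (chr4:134926695-134926744, plus strand): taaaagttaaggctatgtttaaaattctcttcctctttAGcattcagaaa
Srsf5 intron 5, 5′ end (chr12:80947856-80947905, plus strand): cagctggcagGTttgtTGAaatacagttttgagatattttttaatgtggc
Srsf5 intron 5, 3′ end (chr12:80949055-80949104, plus strand): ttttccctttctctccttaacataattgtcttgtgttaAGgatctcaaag
Srsf7 intron 3, 5′ end (chr17:80205222-80205271, minus strand): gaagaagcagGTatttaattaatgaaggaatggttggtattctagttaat
Srsf7 intron 3, 3′ end (chr17:80204378-80204427, minus strand): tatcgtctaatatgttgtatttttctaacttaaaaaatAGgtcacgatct
Clcn4 intron 8 (chr7:7291717-7291829, minus strand): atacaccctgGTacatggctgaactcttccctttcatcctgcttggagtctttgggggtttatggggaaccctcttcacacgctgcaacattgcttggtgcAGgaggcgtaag
Dennd6b intron 11 (chr15:89187041-89187157, minus strand): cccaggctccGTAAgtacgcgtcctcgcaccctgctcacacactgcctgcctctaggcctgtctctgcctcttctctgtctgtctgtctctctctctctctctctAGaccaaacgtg
Naa40 intron 4 (chr19:7230097-7230197, minus strand): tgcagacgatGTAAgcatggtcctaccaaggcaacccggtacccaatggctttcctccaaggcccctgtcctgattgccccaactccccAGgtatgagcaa
Sirt7 intron 7 (chr11:120620495-120620656, minus strand): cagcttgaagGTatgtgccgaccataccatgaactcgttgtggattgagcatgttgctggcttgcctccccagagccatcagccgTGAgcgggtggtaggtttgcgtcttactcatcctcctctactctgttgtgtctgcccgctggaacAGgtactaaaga
Dus3l intron 7 (chr17:56768404-56768527, plus strand): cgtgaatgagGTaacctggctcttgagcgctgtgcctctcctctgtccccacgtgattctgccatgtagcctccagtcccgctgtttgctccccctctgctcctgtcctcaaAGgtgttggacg
Ppdpf intron 2 (chr2:181187727-181187818, plus strand): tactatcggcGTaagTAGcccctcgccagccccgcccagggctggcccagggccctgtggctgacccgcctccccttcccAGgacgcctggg
Mdp1 intron 2 (chr14:55660089-55660177, minus strand): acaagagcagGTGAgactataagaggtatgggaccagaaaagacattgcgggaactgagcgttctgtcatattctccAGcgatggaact

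These ends share the GT and AG and little else. The reading frame met a stop codon 7 nt into the Srsf5 intron, 6 nt into that of Ppdpf, 49 nt into that of Rsrp1, 76 nt into that of Sirt7 and 86 nt into that of Srsf7. The frame ran through the 93 nt intron of Clcn4 with no stop codon, and that length is a multiple of 3. It also ran through the 104 nt intron of Dus3l, whose length is not.

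Retained-intron transcripts took under 1% of the reads of each library. Replicate 1 held 1168366 reads and 10701 of them were on retained-intron transcripts, 0.916% (exact Clopper-Pearson 95% interval 0.899 to 0.933). Replicate 2 held 888704 reads, of which 7021 were on them, 0.790% (0.772 to 0.809), so the mean was 0.853% ± 0.0890 (SD, n = 2). These intervals cover counting error only. Retained-intron transcripts had more reads than transcripts typed as targets of nonsense-mediated decay, which took 0.277% and 0.315% of the reads of replicates 1 and 2. They also had more than those typed processed transcript, a class of spliced non-coding forms, with 0.441% and 0.442%, while protein-coding transcripts took 59.9% and 62.2%.

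Most annotated retained-intron transcripts were not read. Of the 21848, 2804 (12.8%) had at least 1 read, 2148 in replicate 1, 1758 in replicate 2 and 1102 in both. Of those read, 51.6% in replicate 1 and 56.6% in replicate 2 had a single read. The reads were concentrated, since the 10 transcripts with the most reads of a library held 30.7% of retained-intron reads in replicate 1 and 28.9% in replicate 2. Cox4i1-204 alone held 16.3% and 11.4%, and without it the class took 0.767% and 0.700% of the reads. The read transcripts had a median length of 1262 nt, against 881 nt for all annotated ones. The tissue label fits the marker genes, with neuronal Snap25 at 1418 and 1215 reads, astrocytic Aldoc at 1441 and 1700 and myelin Mbp at 3840 and 3893, and these carried no retained-intron read.

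What a retained-intron read shows depends on the structure of its model, so each model was compared with the other transcripts of its gene. Intron chain means the ordered set of introns that a model splices out. For 69.9% of retained-intron reads in replicate 1 and 69.1% in replicate 2, the chain was also part or all of the chain of a protein-coding transcript of the gene. Chains equal to the 3′ part of a coding chain held 53.5% and 49.7%, and those equal to the 5′ part held 12.6% and 13.0%. The tables list no read ends, so such a read cannot be told apart from a read of the coding transcript that starts late or stops early, and how the ends were used in assigning it is not stated in the files or labels.

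Own-chain models, of 2 or more exons with a chain that no transcript of another type in the gene holds, took 14.2% and 14.6% of the retained-intron reads. Most of them keep an intron inside an internal exon, with 13.0% and 13.4% of the reads, while own-chain models that keep an intron only in an end exon took 0.224% and 0.242% and those that keep no whole intron 0.934% and 0.926%. In the first kind the splices on both sides of the kept intron are read, so the kept intron is seen directly. Models with 1 exon held 15.2% and 15.6%. Models of any kind that span at least 1 whole intron of another transcript of the gene held 40.03% and 41.96%. Of the 21848 annotated transcripts, 14752 (67.5%) share a chain with a coding transcript and 2507 (11.5%) have their own chain with an intron in an internal exon.

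**Figure D1:**
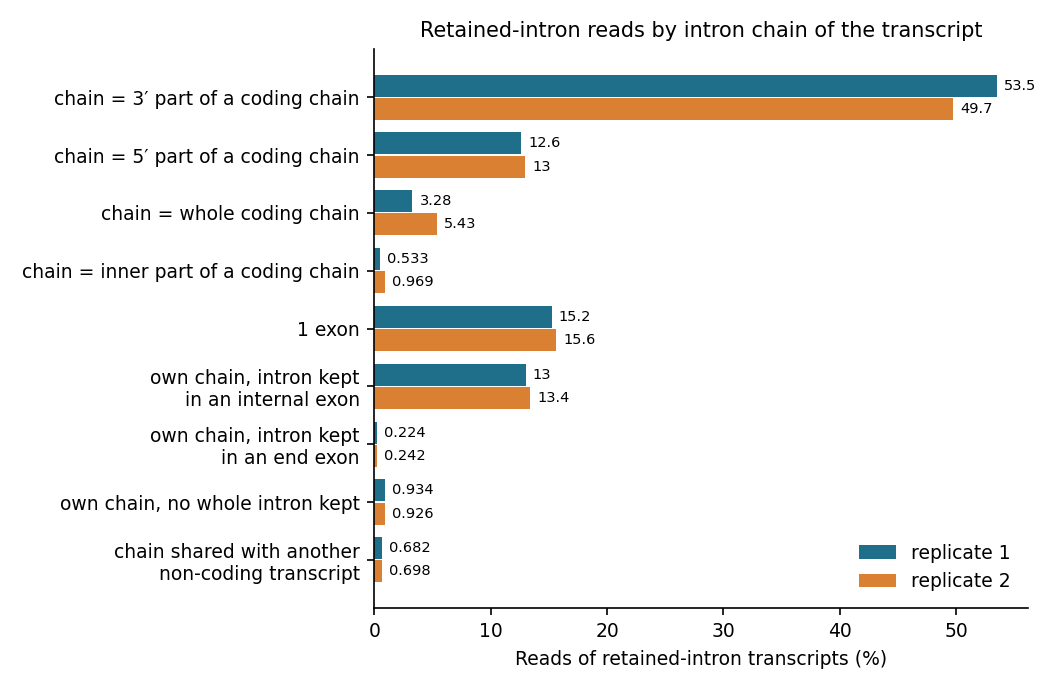
Percent of all retained-intron reads of each library (x axis) by the intron chain of the transcript (y axis), as bars for replicate 1 and replicate 2. Chains equal to the 3′ part of a coding chain lead with 53.5% and 49.7%, followed by 1-exon models with 15.2% and 15.6%.

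The transcript with the most reads, Cox4i1-204, belongs to the gene of subunit 4 of cytochrome c oxidase, the last enzyme of the respiratory chain (ENSMUSG00000031818.12, chromosome 8, 120668222 to 120674207, plus strand). Its 1743 reads in replicate 1 and 798 in replicate 2 came to 1492 and 898 CPM (reads per 1e6 reads of the library). That was 62.4% and 60.2% of the reads of the gene, more than the 994 and 501 reads of the coding Cox4i1-201. Its chain is the last 2 of the 4 introns of Cox4i1-201, and its first exon starts in the intron upstream of them. Models holding the last 3 introns had 16 and 10 reads, and those holding the last intron had 6 and 8, so reads with a partial 3′ chain were nearly all of the 2-intron form. The gene Gm20388 overlaps Cox4i1 on the same strand and had 139 and 131 reads of its own.

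Rpl5-204, of the gene of a protein of the large ribosomal subunit (ENSMUSG00000058558.12, chromosome 5, 107900502 to 107909005, plus strand), had the same form. It had 342 reads in replicate 1 and 172 in replicate 2, and its chain is the last 2 of the 7 introns of Rpl5-201, which had 105 and 67. All models with 3 to 6 of the last introns had 0 to 2 reads each in each library. The annotated sequence just upstream of the exon that each model shares with the coding transcript is shown because it is where these models differ from it. Capitals mark the AG of the 3′ splice site that the coding transcript uses, and the last 10 bases are the shared exon.
Cox4i1-204 (chr8:120672590-120672734, plus strand): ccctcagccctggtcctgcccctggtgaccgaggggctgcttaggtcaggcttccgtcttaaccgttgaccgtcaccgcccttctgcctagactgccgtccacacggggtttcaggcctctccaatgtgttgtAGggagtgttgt
Rpl5-204 (chr5:107904567-107904726, plus strand): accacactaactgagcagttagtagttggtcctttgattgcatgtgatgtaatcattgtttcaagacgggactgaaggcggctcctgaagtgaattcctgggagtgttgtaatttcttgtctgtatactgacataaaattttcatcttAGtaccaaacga

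Syn2-205 belongs to the gene of synapsin II, a phosphoprotein on synaptic vesicles (ENSMUSG00000009394.13, chromosome 6, 115134902 to 115282006, plus strand), and had 340 reads in replicate 1 and 375 in replicate 2. Its 10 introns are the whole chain of the coding Syn2-203, which is listed with 0 reads in both libraries, where 0 allows up to 0.448% and 0.464% of the reads of the gene. Syn2-205 has the shorter last exon. Reads listed under Syn2-205 therefore splice every intron of that coding transcript, and as listed they show no kept intron. Timp4 lies within Syn2 on the opposite strand and had 95 and 72 reads, and the files and labels do not state whether strand was used in the counting.

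Rsrp1-204 was the most read transcript with a chain of its own. Rsrp1 encodes a protein rich in arginine and serine (ENSMUSG00000037266.18, chromosome 4, 134923592 to 134927372, plus strand). Rsrp1-204 had 251 of 395 gene reads in replicate 1 and 234 of 321 in replicate 2, against 91 and 35 for the coding Rsrp1-201. It splices the other introns of Rsrp1-201 and keeps the 1302 nt intron 3 whose ends are printed above.

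**Figure D2:**
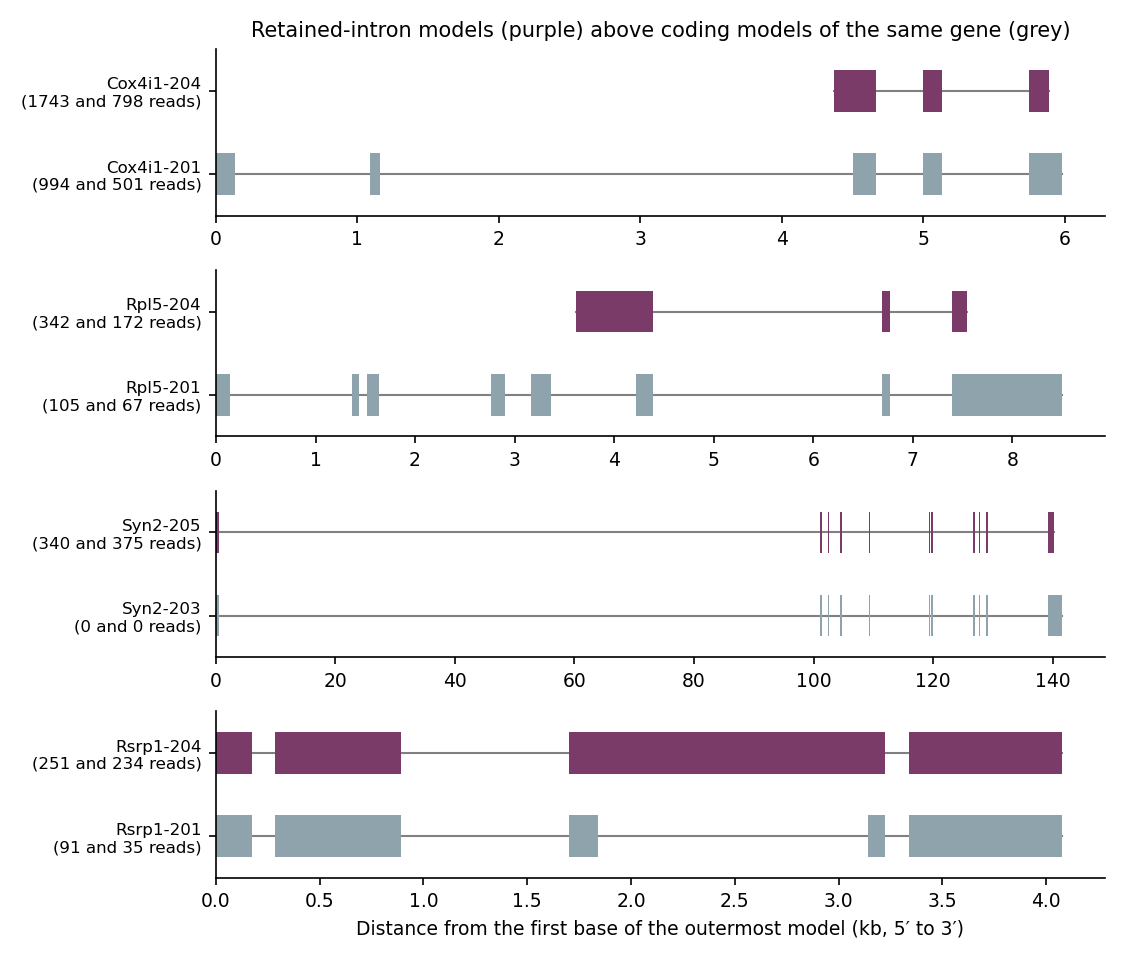
Exons (boxes) and introns (lines) of 4 retained-intron models above a coding model of the same gene, by distance in kb from the first base of the outermost model, with reads of replicates 1 and 2 in brackets. Cox4i1-204 and Rpl5-204 hold the last 2 introns, Syn2-205 holds every intron of Syn2-203, and Rsrp1-204 keeps intron 3.

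The other transcripts among the 10 with the highest mean CPM had 35 to 128 reads in each library. Ndrg4-208, from a gene of the N-myc downstream regulated family, had 95 reads in replicate 1 and 116 in replicate 2, which was 4.11% of the 2311 gene reads in replicate 1. Sparc-205, of the gene of a secreted matrix protein made by astrocytes and vessel cells, had 93 and 83 reads, and its mean share was 15.4% ± 0.0572 (SD, n = 2). Fxyd1-213, of the gene of phospholemman, a regulator of the sodium-potassium pump, had 128 and 41. These 3 hold 3′ parts of coding chains. For Sparc the partial 3′ chains were spread out, with 93 and 83 reads at 4 introns, 48 and 35 at 5 and 45 and 37 at 6 of the 9 introns of Sparc-201.

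Pgp-202 and Ss18l2-207 have 1 exon each. Pgp-202, of the gene of phosphoglycolate phosphatase, had 105 of 359 gene reads in replicate 1 and 92 of 277 in replicate 2 and spans 1 whole intron. Ss18l2-207 had 101 and 59 reads and spans 3. Rex1bd-207 had 85 and 35, on the last 2 of the 4 introns of Rex1bd-201, which had 45 and 18. A 1-exon model has no splice that shows its strand or that it came from processed RNA.

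Shares of gene reads were computed where each library had at least 20 reads of the gene. Of 6607 such genes, 4109 have an annotated retained-intron transcript, and in 2527 of those (61.5%) it had no read in either library. In 824 genes it was read in both. The median share over the 4109 genes was 0 and the mean 1.62%, while over the 824 genes the median was 3.52% (quartiles 1.61% and 7.81%). A share of at least 10% in both libraries was found in 110 genes (2.68%), of at least 20% in 52 and of at least 50% in 10. With only own-chain transcripts counted, 15 genes reached 10%. At the edge of the minimum, the 102 genes with exactly 20 reads in the lower library had a mean share of 1.53% and the 97 genes with 19 had 2.02%.

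Shares were close between the libraries. In the 101 genes with at least 10 retained-intron reads in each library, Pearson's r of the share between replicates 1 and 2 was 0.948 and Spearman's rho 0.957, across genes, which are not replicates. The median absolute difference was 3.20 points. In 10 of the 101 genes the shares differed by over 10 points.

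**Figure D3:**
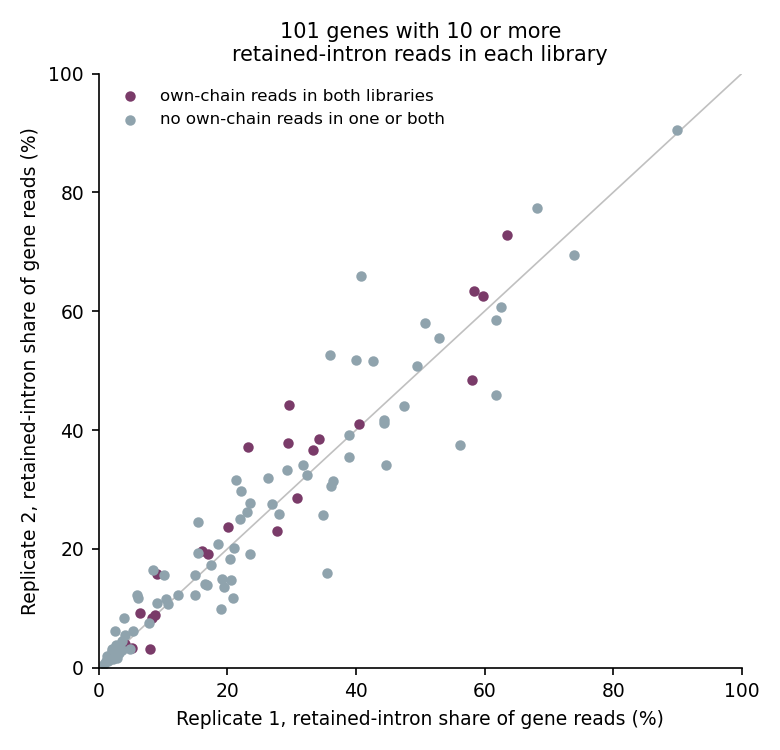
Share of gene reads on retained-intron transcripts in replicate 1 (x axis, %) and replicate 2 (y axis, %) for the 101 genes with at least 10 such reads in each library, where the line marks equal shares. The 23 genes with own-chain reads in both libraries (purple) lie along the same line as the other genes (grey).

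The gene with the highest share was Egr3, an activity-induced zinc finger transcription factor of neurons (chromosome 14, 70077203 to 70082614, plus strand). Its 1-exon Egr3-202 had 27 of 30 reads in replicate 1 and 38 of 42 in replicate 2. The model spans no whole intron, and Bin3 overlaps it on the same strand with 29 and 20 reads. Ss18l2 followed with 137 of 201 and 82 of 106, Rpl5 with 347 of 469 and 177 of 255, Rsrp1 with 251 of 395 and 234 of 321 and Cox4i1 with 1749 of 2795 and 806 of 1326. Of these 5 genes, Rsrp1 alone had own-chain retained-intron reads.

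The other 15 of the 20 highest genes have varied roles. Stau1, of a double-stranded RNA binding protein that carries mRNA in dendrites, had 79 of 128 reads in replicate 1 and 34 of 74 in replicate 2. Cstf3, of a subunit of the factor that cleaves pre-mRNA at its 3′ end, had 24 of 54 and 10 of 24, on models that hold the first introns of the coding chain. Aak1, of the kinase of the clathrin adaptor AP2, had 37 of 70 and 40 of 72, all on a 1-exon model.

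Syne1, of the nuclear envelope protein nesprin, had 26 of 61 reads in replicate 1 and 49 of 95 in replicate 2, on a model of 19 exons. Gfra4, a receptor of the GDNF family, had 37 of 78 and 30 of 68. Fdx1l, a mitochondrial ferredoxin, had 49 of 82 and 15 of 24. Fdx1l-203 is an own-chain form with 22 and 4 of those reads. The shares of the remaining 9 genes (Rex1bd, Fxyd1, Syn2, Ccdc74a, Ppdpf, Tssc4, Ngrn, C030006K11Rik and Fam173a) had means from 44.3% to 60.9%. In 16 of the 20 genes no retained-intron read was on an own-chain transcript, and in Rex1bd 1 read of each library was.

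**Figure D4:**
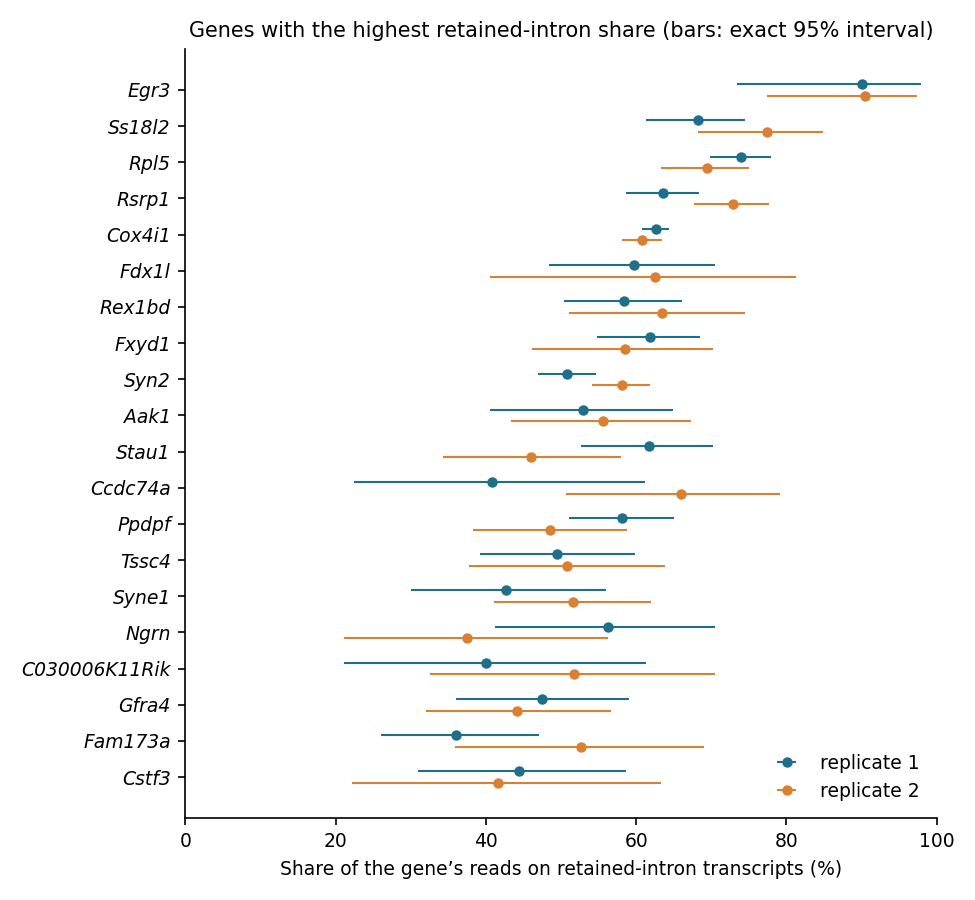
Share of gene reads on retained-intron transcripts (x axis, %) for the 20 genes with the highest mean share (y axis), as points for replicates 1 and 2 with exact 95% binomial intervals. Egr3 stands at 90% and 90.5% and Cstf3 at 44.4% and 41.7%, and the intervals of the libraries overlap in each gene.

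The 15 genes with at least 10% on own-chain transcripts were picked out after their values were seen. Rsrp1 led them, at 63.5% in replicate 1 and 72.9% in replicate 2. Poglut1, which adds glucose to Notch-type repeats, had 23 of 67 reads and 20 of 52, on a model that keeps no whole intron, while in the other 14 genes every own-chain read was on a model that keeps an intron in an internal exon. Alkbh6, of the AlkB family of dioxygenases, had 25 of 85 and 17 of 45.

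Naa40, the acetyltransferase of the ends of histones H2A and H4, had 12 of 42 own-chain reads in replicate 1 and 10 of 30 in replicate 2. Ccnl2, a cyclin that localizes to nuclear speckles and takes part in splicing, had 50 of 180 and 30 of 130. Mdp1, a magnesium-dependent phosphatase, had 20 of 86 and 26 of 70. Srrm1, a splicing coactivator, had 11 of 56 and 4 of 39, and the others were Ppdpf, Tesc, Fdx1l, Tmem134, Mrps26, Dus3l, Chkb and Plekhj1. All 15 passed 10% in each library.

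Functions were read from 18 gene lists, each set beside all 4109 genes, of which 20.1% had retained-intron reads in both libraries and 2.68% reached 10%. SR proteins, which bind exons and recruit the spliceosome, had a median share of 3.24%, against 0 for all genes. Of 8 measured members with an annotated retained-intron transcript, 5 were read in both libraries and none reached 10% in both. Srsf7 had 11 of 121 reads in replicate 1 and 14 of 89 in replicate 2, all on own-chain forms. Srsf5 had 14 of 168 and 5 of 180, also all own-chain, Srsf11 had 8 of 98 and 4 of 85, and Srsf1 had 4 of 89 and 2 of 72.

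Among the splicing kinases, which phosphorylate SR proteins, 2 of 5 were read in both libraries. Srpk1 had 8 of 85 reads in replicate 1 and 3 of 38 in replicate 2, and Clk2 had 1 of 76 and 4 of 58, all on own-chain forms. Of 43 spliceosome genes and splicing regulators, 14 were read in both and 3 reached 10% in both. These were Srrm1, Luc7l2, a protein tied to the U1 particle, with 9 of 53 and 5 of 45, and Acin1, a nuclear RNA-binding protein, with 4 of 40 and 3 of 22. Prpf31, a U4/U6 particle protein, had 23 of 109 and 6 of 81. Of 19 hnRNP and DEAD-box genes, 3 were read in both, and Hnrnpr had 7 of 130 and 6 of 164.

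Genes of the ribosome and of energy metabolism were often read at low shares. A gene with more reads can more easily show a retained-intron read in both libraries, and the lists were not matched for depth. Ribosomal protein genes had retained-intron reads in both libraries in 26 of 58 (44.8%) and a median share of 0.455%, and Rpl5 alone reached 10% in both. Rpl36a had 10 of 95 reads in replicate 1 and 4 of 41 in replicate 2, and Rpl31 had 9 of 119 and 4 of 48. Ribosomal protein genes have many processed copies, and the files do not state how reads that match several were assigned. Respiratory chain and glycolysis genes were read in 17 of 33 (51.5%). Beside Cox4i1, the glycolytic enzyme gene Eno2 reached 10%, with 45 of 419 and 40 of 375, while Cyc1, a complex III subunit, had 26 of 441 and 35 of 287 and Pfkp 17 of 304 and 5 of 254.

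Proteasome and ubiquitin genes were read in both libraries in 10 of 25. Usp19, a deubiquitinase, had 23 of 82 reads in replicate 1 and 23 of 89 in replicate 2, and Psmb6, a catalytic subunit of the proteasome, had 46 of 308 and 23 of 147, and both genes reached 10% in each library. Psmb3 had 7 of 173 and 7 of 74, and Uchl1, an abundant neuronal ubiquitin hydrolase, 27 of 677 and 25 of 297. In the list of translation factors, 7 of 40 were read in both. Pabpc1, the poly(A)-binding protein, had 20 of 87 and 33 of 126 and alone reached 10% in both, Eprs 5 of 87 and 7 of 100, Eef1d 6 of 126 and 1 of 65, and Eif2s2 5 of 240 and 5 of 209.

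Synaptic genes were read at low shares apart from single genes. Presynaptic release genes had retained-intron reads in both libraries in 5 of 21, and Syn2 was the only one to reach 10%. Slc17a7, the vesicular glutamate transporter, had 18 of 1321 reads in replicate 1 and 23 of 1202 in replicate 2, Nsf 6 of 798 and 3 of 816 and Napa 3 of 623 and 3 of 523. Among 20 postsynaptic genes 3 were read in both. Iqsec1, an exchange factor for Arf6, had 25 of 56 and 13 of 38 on a 1-exon model, and Gria2, an AMPA receptor subunit, had 22 of 364 and 43 of 367.

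Of the cytoskeleton and motor genes, 7 of 27 were read in both libraries. Ank2, a membrane-cytoskeleton linker, reached 10% in both with 23 of 78 reads in replicate 1 and 8 of 64 in replicate 2, mostly on a 1-exon model, while Tubb5 had 13 of 1091 and 10 of 872 and Klc1 7 of 950 and 1 of 846. Of 19 channel and pump genes 3 were read in both, and none reached 10%. Chromatin and transcription genes were read in 3 of 25. Chd3, a chromatin remodeler, had 16 of 153 and 14 of 120, and Polr2e, an RNA polymerase II subunit, 4 of 141 and 3 of 83.

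The astrocyte and myelin lists had low shares, each with a median of 0 as over all genes. In the astrocyte list 3 of 12 (25%) were read in both, against 20.1% of all genes, and the glutamate transporter gene Slc1a3 had 4 of 623 reads in replicate 1 and 2 of 830 in replicate 2. In the myelin list 2 of 8 (25%) were, and Gpm6b had 8 of 1596 and 1 of 1624. Of the snoRNA host genes 5 of 11 were read in both, with Gas5 at 10 of 101 and 1 of 32 and Ncl at 3 of 141 and 2 of 144, and of the long noncoding and imprinted RNAs 1 of 3 was.

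Genes in which retained introns have been described in neurons or other cells were mostly at or near 0, as were most of all 4109 genes. Of the 8 measured members, 2 (25%) were read in both libraries, against 20.1% of all genes. The median share of the 8 was 0.0661%, against 0 for all genes. Clk4 had 3 of 71 reads in replicate 1 and 0 of 26 in replicate 2, where a count of 0 is taken to allow 3 reads, here 11.5%. Vamp2, a vesicle fusion protein, had 2 of 1146 and 1 of 1114, and Hnrnpdl 0 of 121 and 2 of 164. Ogt, Mat2a, Sv2a and Ddx5 had none in either library. By the same limit those counts allow shares of up to 8.82% and 10.3% for Ogt, 1.15% and 1.25% for Mat2a, 1.03% and 1.10% for Sv2a, and 0.388% and 0.401% for Ddx5. Srsf5, given above, was the highest of the 8 measured members.

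The libraries differed in the reads of some retained-intron transcripts and in the share of gene reads of 1. Shares were tested with Fisher's exact test and Benjamini-Hochberg adjustment over all annotated transcripts with at least 10 reads in all, of which 0.765% passed an adjusted p of 0.05, 0.543% higher in replicate 2 and 0.222% higher in replicate 1. Of 256 retained-intron transcripts, 28 (10.9%) had an unadjusted p at or below 0.05, against 636 (7.84%) of all 8108 transcripts tested. After adjustment 1 passed, Maged1-207, an own-chain form of a MAGE-family gene, with 18 of 571 gene reads in replicate 2 and 53 of 658 in replicate 1 (adjusted p = 0.0333).

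The read split of each transcript was set against the library totals in an exact binomial test, two-sided, adjusted in the same way. In that test 9.64% of 10598 annotated transcripts passed, 5.15% higher in replicate 2 and 4.49% higher in replicate 1. Of 281 retained-intron transcripts 14 passed, 5 higher in replicate 2 and 9 higher in replicate 1. With library totals scaled by TMM the split was 4 and 12, and that of all transcripts was 292 and 654, where it had been 546 and 476.

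Higher in replicate 2 were Syn2-205, Ndrg4-208, Gria2-204 with 29 reads in replicate 2 and 12 in replicate 1, Syne1-207 with 49 and 26, and Ccdc74a-207 with 28 and 9. The log2 CPM ratio of replicate 2 over replicate 1 was 1.90 for Ccdc74a-207 (adjusted binomial p = 0.00207) and 0.53 for Syn2-205 (adjusted binomial p = 3.38e-05). Among those lower in replicate 2 were Cox4i1-204, with a log2 CPM ratio of -0.73 (adjusted binomial p = 5.12e-31), Rpl5-204 at -0.59, Fxyd1-213 at -1.23, Rex1bd-207 at -0.87, Maged1-207 at -1.13, Ppdpf-205 with 16 reads in replicate 2 and 57 in replicate 1, Fdx1l-203 with 4 and 22, and Pstk-202 with 0 and 11. For each of the 14 apart from Maged1-207 and Pstk-202, the share of gene reads was tested and did not pass. Pstk had too few reads for that test.

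The libraries also differed in transcript length and in the markers of several cell types. The median log2 CPM ratio of replicate 2 over replicate 1 was -0.23 over the 281 retained-intron transcripts and 0.11 over all 10598. For models up to 1000 nt it was -0.26 for 114 retained-intron transcripts and -0.61 for all 1291, and above 2000 nt -0.18 for 101 and 0.29 for all 6645. All 3 choroid plexus markers were lower in replicate 2, with a summed level of 5.63 CPM in replicate 2 and 4618 CPM in replicate 1. Ttr had 5 reads in replicate 2 and 5325 in replicate 1, and Kcnj13 and Clic6 were at 0 in replicate 2. None of the 3 had a retained-intron read. Astrocyte markers were higher in replicate 2, as in Aldoc with 1913 CPM in replicate 2 against 1233 CPM in replicate 1, the gap junction gene Gja1 with 1019 against 623 CPM, and Slc1a3 with 934 against 533 CPM. Replicate 2 had 34 reads of Prox1, a marker of dentate granule neurons, and replicate 1 had 8. The haemoglobin genes of red blood cells were lower in replicate 2, with Hba-a1 at 179 CPM in replicate 2 and 290.1 CPM in replicate 1 and Hbb-bs at 106 and 165 CPM. The part of these cell types or of length in the differences above was not tested.

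Because most of the reads lay on shared chains, retention was also counted intron by intron over every model, annotated or not. A read splices an intron if its model does, and keeps it if an exon of its model spans it. In the count over all models, 3522 introns kept by an annotated retained-intron transcript had 20 or more reads that kept or spliced them per library. Of these, 588 (16.7%) were kept by at least 10% in both, against 1566 (3.11%) of all 50364 annotated introns with as many reads. The 10 introns with the highest retention by the named-gene rule, among them introns of Cic, Gramd1a and Tm9sf1, had no splicing read at all, so they show no choice between forms. The values below therefore count only introns kept in internal exons, with splices read on both sides, and spliced by at least 10 reads in each library, a choice made after the values were seen.

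Of 3265 such introns, 188 (5.76%) in 141 genes were kept by at least 10% of the reads in both libraries, 80 by at least 20% and 39 by at least 30%. Of 46148 annotated introns that no retained-intron transcript keeps, 122 (0.264%) were. In 1629 of the 3265 introns no read kept the intron in an internal exon. A first or last intron, when kept, mostly lies in an end exon, which this count leaves out. Such introns could hardly reach 10% here or in the counts by gene list below. Last introns were 0 of the 188 and 246 of the 3077 kept at lower shares, and first introns were 1 and 250. Among the 188 the median absolute difference between libraries was 4.97 points. These values set the reads that keep an intron against those that splice out exactly that intron, and reads that use another splice site across the same stretch are in neither count. With reads that splice out any overlapping intron as the other form, an alternative chosen after seeing the data, 161 of the 3265 (4.93%) in 127 genes were kept at 10% or more, and 88 of the 46148 (0.191%). The share fell by over 5 points in at least 1 library for 42 of the 188.

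Clcn4, of a chloride-proton exchanger of endosomes, had the highest value. Its 93 nt intron 8 was kept by 268 of 284 reads in replicate 1 and 249 of 272 in replicate 2. Splicing it out was thus the minor form, and as given above the kept stretch holds the reading frame without a stop codon. Whether the kept form is the usual coding form was not tested. The annotated retained-intron form of that intron, Clcn4-205, had no reads in either library, so other models carried it. The 1302 nt intron 3 of Rsrp1 was kept by 255 of 349 and 244 of 280, nearly all on Rsrp1-204.

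Between those 2 introns and the rest lay a gap. The 79 nt intron 2 of Tmem191c was kept by 51 of 91 reads in replicate 1 and 33 of 60 in replicate 2. Intron 11 of Dennd6b, of a regulator of Rab proteins, was kept by 31 of 54 and 19 of 36. With any overlapping splice as the other form, the Clcn4 values did not move, and the retention of the Rsrp1, Tmem191c and Dennd6b introns was 70.8% and 82.4%, 56.04% and 54.1%, and 57.4% and 48.7% in replicates 1 and 2.

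Ntsr2, a neurotensin receptor found in astrocytes, has introns of 1494, 1552 and 1675 nt that lie across the same stretch, and its value depended on the other form. The same 33 reads in replicate 1 and 27 in replicate 2 keep all of them, and the retained-intron transcript Ntsr2-205 held all of those reads. Retention was 55.9% and 52.9% against reads that splice the 1552 nt form, and 34.7% and 34.6% against the 1675 nt form. It was 14.0% and 14.5% against the 1494 nt form, and 8.82% and 9.34% against the 341 and 262 reads that splice out any intron there.

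The introns described next were picked from the 188 after their values were seen. Sf3b1, of a core protein of the U2 particle, kept a 306 nt intron in 21 of 38 reads in replicate 1 and 8 of 21 in replicate 2, or 17.5% and 7.77% with any overlapping splice as the other form. The 874 nt intron 3 of Srsf7 was kept in 42 of 103 and 39 of 83. Sirt7, a nuclear deacylase, kept intron 7 in 32 of 75 and 19 of 42.

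Dus3l, which makes dihydrouridine in RNA, kept intron 7 in 41 of 85 reads in replicate 1 and 37 of 94 in replicate 2, and intron 8 in 38 of 85 and 39 of 95. Naa40 kept intron 4 in 16 of 33 and 10 of 22 and intron 5 in 14 of 34 and 10 of 22. In these genes neighbouring introns were thus kept at like shares. Rbm39, a splicing factor, kept a 224 nt intron in 9 of 32 and 15 of 47, or 3.66% and 7.73% with any overlapping splice as the other form. Srpk1 kept intron 10 in 10 of 52 and 5 of 34, and Clk2 kept intron 4 in 13 of 65 and 5 of 37.

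**Figure D5:**
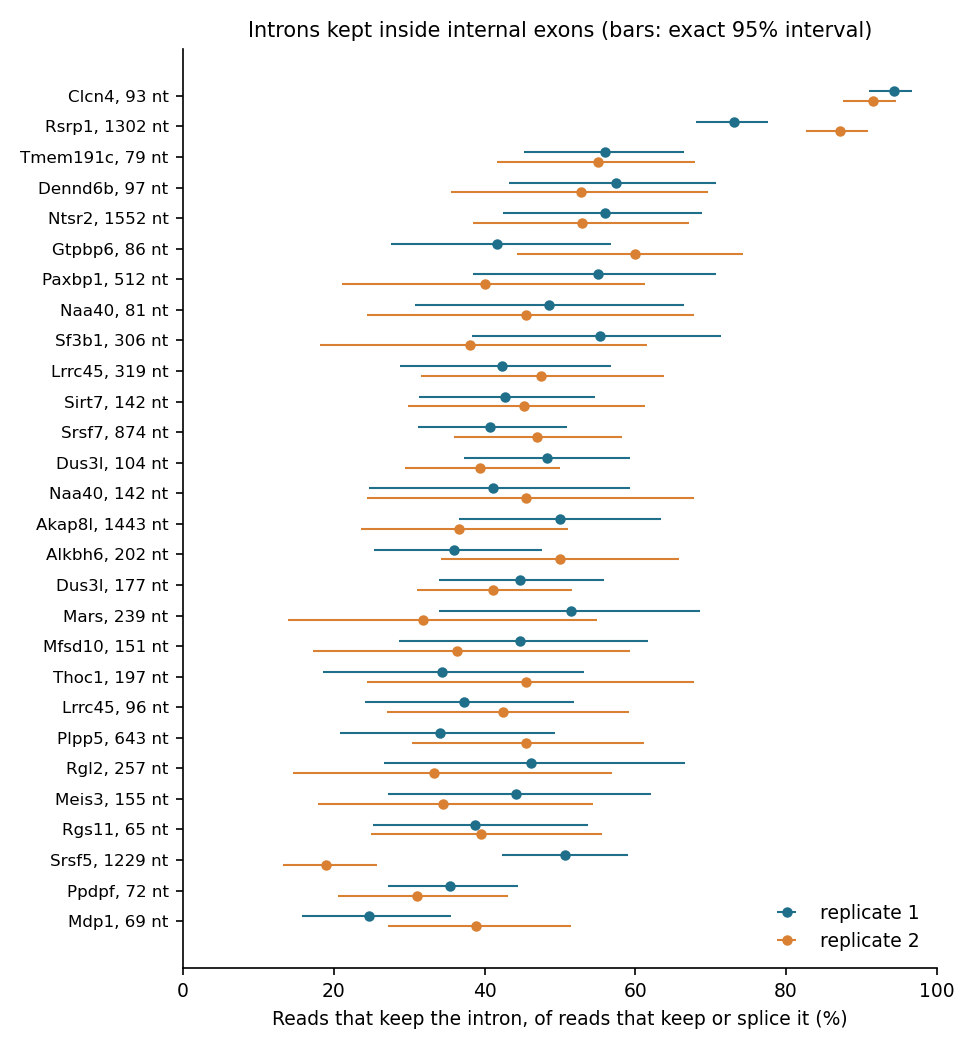
Percent of reads that keep an intron in an internal exon, of reads that keep or splice it (x axis), for the leading introns and those of Srsf5, Ppdpf and Mdp1 printed above (y axis, gene and intron length), as points for replicates 1 and 2 with exact 95% binomial intervals. Clcn4 and Rsrp1 stand apart at the top, and for Rsrp1 and Srsf5 the intervals of the libraries do not overlap. The points of Ntsr2, Sf3b1 and Mars fall to 8.82% and 9.34%, 17.5% and 7.77%, and 24% and 10% when any overlapping splice counts as the other form.

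Few introns differed between the libraries. Fisher's exact test adjusted over all annotated introns called 0.3% of 50364 introns over all models and 19 of the 3522 kept by retained-intron transcripts. Counted in internal exons, 3 of 49543 (0.00606%) passed and 1 of them is kept by a retained-intron transcript. It was the 1229 nt intron 5 of Srsf5, kept in 31 of 164 reads in replicate 2 and 75 of 148 in replicate 1 (adjusted Fisher's exact p = 7.84e-05). Over all models the Rsrp1 intron was kept in 87.2% of reads in replicate 2 and 73.1% in replicate 1 and passed (adjusted Fisher's exact p = 0.00516). In internal exons it was kept in 87.1% and 73.1% and did not pass (adjusted Fisher's exact p = 0.127). Most of the other introns called over all models differed in end exons or 1-exon models, as in Dynlt1c, with 0 and 44 reads on 1-exon models in replicates 2 and 1.

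By gene list, an intron kept at 10% or more was found in 141 of 1590 genes (8.87%) with a tested intron. It was found in 2 of 5 SR protein genes (Srsf7 and Srsf5), 2 of 5 splicing kinase genes (Srpk1 and Clk2), 5 of 16 spliceosome genes, 3 of 12 chromatin genes, 2 of 11 snoRNA host genes, 1 of 6 channel and pump genes and 1 of the 5 genes with described retained introns (Srsf5). With any overlapping splice as the other form, 127 of the 1590 genes had such an intron. The spliceosome count was then 2 (Tia1 and Prpf40b), and the other counts in these lists were as given. It was found in none of 39 ribosomal protein genes, 18 respiratory chain and glycolysis genes, 16 proteasome and ubiquitin genes, 23 translation genes, 13 cytoskeleton genes, 5 presynaptic genes, 5 postsynaptic genes, 9 hnRNP and DEAD-box genes, 4 astrocyte genes, 2 long noncoding genes or the 1 myelin gene tested. The translation count leaves out Mars, the methionyl-tRNA synthetase gene, which the list holds only as Mars1. The 132 nt intron of Mars was kept in 32.8% of reads in replicate 1 and 12.7% in replicate 2. With any overlapping splice as the other form it was kept in 25.3% and 10%. Cox4i1 and Rpl5, which lead by retained-intron reads, are not among the 141 genes. Their leading models, Cox4i1-204 and Rpl5-204, span no whole intron, so this count could not include those reads.

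Length and splice sites of the 188 kept introns were close to those of the introns kept less. The 188 had a median length of 213.5 nt, against 239 nt for the 3077 kept at lower shares and 1267 nt for the 46148 that no retained-intron transcript keeps. Their median GC content was 55.3%, against 51.8%. Of the 188, 181 lay within a coding region, and 157 of those (86.7%) brought a stop codon in frame, against 88.1% of the lower ones, with a median of 36 nt and 35.5 nt to it. All 188 began with GT and ended with AG, as did 99.0% of the lower ones. The strong 5′ splice site starts GTAAGT and GTGAGT, searched in the intron's own strand, opened 21.8% of the 188 and 25.7% of the lower ones, while GTATCCTT and ATATCCTT, starts of introns of the minor spliceosome, opened none and 0.422%. These are descriptions, and no test was made of them.

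Most reads that keep these 188 introns were not on annotated retained-intron transcripts. Those transcripts held 741 of 2998 such reads (24.7%) in replicate 1 and 593 of 2410 (24.6%) in replicate 2. Unannotated models that join known splice sites in new combinations held 54.4% and 51.7%, partial matches of annotated transcripts 12.7% and 14.8%, models with an unannotated site 6.24% and 7.05%, and protein-coding transcripts 1.67% and 1.45%. For the Srsf5 intron the annotated forms held 5 of the 31 reads in replicate 2 and 14 of the 75 in replicate 1.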

How the data were processed

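The deposited tables hold raw read counts per transcript model, 1 table for each of 2 libraries, per the file headers, with models named by TALON in the deposited annotation and coordinates on mm10 with GENCODE M21. No aligner, version or read filter is stated in the files or labels. Reads of a gene are those of all models that carry its identifier, unannotated ones included, and CPM are reads per 1e6 reads of a table, spike-ins included. One library is 1 pool, so p-values set the difference between these 2 libraries against the counting error of reads. They measure no spread between pools or animals.

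Members and lists were chosen with earlier results of these data known. The named-gene rule took the 10 retained-intron transcripts with the highest mean CPM, the 20 genes with the highest share (at least 20 gene reads and 10 retained-intron reads in each library), up to 4 members per list with at least 5 such reads over both libraries, all measured members of the list of described retained introns, up to 5 transcripts per test and direction, and the 10 introns with the highest retention. Log2 CPM ratios have 1 CPM added, which lowers the change of low transcripts. Of the listed symbols, Snhg4, Snhg16 and Mars1 are not in the annotation used. The gene listed as Mars1 is in the annotation as Mars and was not counted in its list.

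Fisher's exact test, the exact binomial test and Benjamini-Hochberg adjustment ran over all annotated transcripts or introns at a threshold of 0.05, in Python 3.11.15 with numpy 2.4.6 and scipy 1.17.1, and figures used matplotlib 3.10.9. TMM factors of edgeR 4.0.16 and size factors of DESeq2 1.42.0 (R 4.3.3) gave alternatives. On simulated data the share test recovered 50.5% of 200 transcripts shifted by 30 points (8108 tested), the split test 33% of 2-fold and 88% of 4-fold changes (100 each, 10598 tested), and the intron test 69% of 200 introns shifted by 30 points (49543 tested). Alternatives were other denominators and minimums, models of 2 or more exons, own chains, internal exons, other scalings and each library alone. Some genes that the rule would name are not reported here.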

Additional observations from a re-analysis of the deposited data

How the results depend on the processing

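The retained-intron share of library reads (0.853%) lay between 0.790% and 0.916% with 1 library left out. It was 1.31% of annotated reads, 0.721% with transcripts of 2 or more exons, 0.733% without Cox4i1 and 0.122% with own chains only (all own-chain models, also those that keep no intron in an internal exon), the last 2 chosen after seeing the data. The number of retained-intron transcripts read in both libraries was 1102, or 200 with at least 5 reads in each, and 1758 to 2148 were read in a single library. The median share stayed at 0 under every alternative run. Genes at 10% or more numbered 110, 159 to 160 in a single library, 57 with at least 50 gene reads, 52 at a limit of 20% and 15 with own chains only. The count of transcripts whose share differed was 1, and 0 with no minimum on transcript reads, where more transcripts were tested. Transcripts higher in replicate 1 numbered 9, and 4 with no minimum. TMM moved the log2 ratio of all transcripts by -0.13. Introns kept at 10% or more numbered 588, 712 to 723 in a single library, 222 with at least 50 reads, 265 in internal exons, 391 with 10 splicing reads and 526 with any overlapping splice as the other form, the last 3 chosen after seeing the data. Introns that differed numbered 19, 4 with models of 2 or more exons and 1 in internal exons. The causes of these changes were not tested beyond the fewer reads or models that each setting counts. Among the 20 named genes, the share moved by more than the spread between libraries in 19 with own chains only, in 10 with annotated reads as the denominator and in 4 with 2 or more exons.

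No paired analysis was possible because there is 1 group. A test between the libraries cannot be run with 1 left out. Depth limits low shares, since a gene with 20 reads and none on a retained-intron transcript allows 3.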
